A study of Arabidopsis thaliana with 8 samples.

Results

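The comparison described here sets the 2 bzr1-1D libraries directly against the 2 pifq libraries, 4 of the 8 RNA-seq libraries of the series, chosen by the genotype in their titles. All were made from whole etiolated Arabidopsis thaliana seedlings of the Col-0 ecotype, harvested when 5 days old after growth in darkness, with the inhibitor BRZ (brassinazole) in the medium to block brassinosteroid synthesis. The bzr1-1D line carries a dominant allele of BZR1 and has all its phytochrome-interacting factors (PIFs), while the pifq line lacks PIF1, PIF3, PIF4 and PIF5 and has the normal BZR1. The other 4 libraries, used here to place the difference and to share the estimate of spread, are 2 of the wild type Col-0 and 2 of pifq;bzr1-1D, which combines both changes. All 4 genotypes had the same inhibitor, the same darkness and the same age, so the comparison holds no untreated, light-grown or brassinosteroid-fed seedlings. The labels give neither the alleles combined in pifq nor the cultures the libraries came from. The p-values therefore measure the spread between libraries, which may be technical.

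Brassinosteroids act through a receptor kinase cascade that lets BZR1 and its relatives accumulate in the nucleus, where they switch growth genes on and brassinosteroid synthesis genes off. PIFs are basic helix-loop-helix factors that keep dark-grown seedlings in the etiolated programme of a long hypocotyl, closed cotyledons and unmade chloroplasts, and light removes them through phytochrome. BZR1 and PIF4 bind each other and share many target genes, so bzr1-1D and pifq are lines in which these partners are raised on one side and removed on the other. A description of the lines as elongating and de-etiolating seedlings can be set against the RNA only, since lengths and greening were not measured here.

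The library totals of both lines were close, at 25.6 and 24.3 M gene counts in bzr1-1D and 25.8 and 24.6 M in pifq (M, mega), while the other 4 libraries held 16.1 to 34.4 M. Levels are given as CPM, counts per M gene counts, and a count of 0 allows up to 0.123 CPM in the shallower bzr1-1D library and 0.122 CPM in the shallower pifq library (3 counts, counting error only). The 20 genes with the most counts took 7.7% of the counts in both bzr1-1D libraries and 10.8% and 11.2% in those of pifq. Chloroplast-encoded genes took 0.46% and 0.61% against 0.998% and 1.14%. The part of these shares in the results below was not tested, apart from a fit without organelle-encoded genes, which called 15688 genes. PORA, the protochlorophyllide reductase typical of etiolated tissue, was present in every library of both lines, with 2998 and 2948 CPM in bzr1-1D and 1767 and 1727 CPM in pifq.

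Most of the transcriptome differed between the lines. Of 21221 genes tested by edgeR's quasi-likelihood F test, 15731 were called at a Benjamini-Hochberg adjusted p under 0.05, which is 74.1%. Of these, 7824 were higher in bzr1-1D (36.9% of all tested) and 7907 were higher in pifq (37.3%). The sizes were mostly small, with a median absolute log2 fold change of 0.51, where every log2 fold change is bzr1-1D minus pifq. A difference of 2-fold or more was called for 5116 genes (24.1%), 2702 of them higher in bzr1-1D (12.7%) and 2414 higher in pifq (11.4%). The libraries of the lines did not overlap for 18306 genes (86.3%), so a gene without overlap is common here and is read against that share. The median log2 fold change of all genes tested was -0.01. Since about 3 in 4 genes passed the test, the counts of list members below are read against 36.9% and 37.3%, and their medians against -0.01. These baselines are set in part by the scaling of the libraries (TMM), which centres the fold changes near 0. With upper-quartile scaling the median was -0.072 and 45% of the calls were higher in bzr1-1D.

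The mutated genes came first as a check of the labels. PIF1 had 44.6 and 44.3 CPM in bzr1-1D and 21.5 and 22.2 CPM in pifq, a log2 fold change of 0.99 ± 0.06. Here and below, the value after ± is the log2 fold change, without its sign, over the square root of its F statistic. For large folds with few counts in 1 line this value falls below the counting error and is not a standard error. PIF5 had 33.3 and 35.6 CPM in bzr1-1D and 10.9 and 11.7 CPM in pifq, and its log2 fold change was 1.56 ± 0.07. PIF3 had 164 and 165 CPM in bzr1-1D and 114 and 108 CPM in pifq. All were lower in both pifq libraries than in both bzr1-1D libraries, yet far from 0. PIF4 went the other way, with 14.8 and 13.1 CPM in bzr1-1D and 25 and 25.8 CPM in pifq and a log2 fold change of -0.9 ± 0.07. Counts summed over a gene do not show whether the transcript can make protein. PIF1, PIF3 and PIF5 went in the direction of the label and PIF4 did not. Since 36.9% of all genes tested were called higher in bzr1-1D, direction alone cannot verify the label. BZR1 itself had 41.8 and 43.7 CPM in bzr1-1D and 33.1 and 33.5 CPM in pifq, a log2 fold change of 0.32 ± 0.05. The bzr1-1D allele is known to change the protein's stability, which RNA counts do not read.

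**Figure D1:**
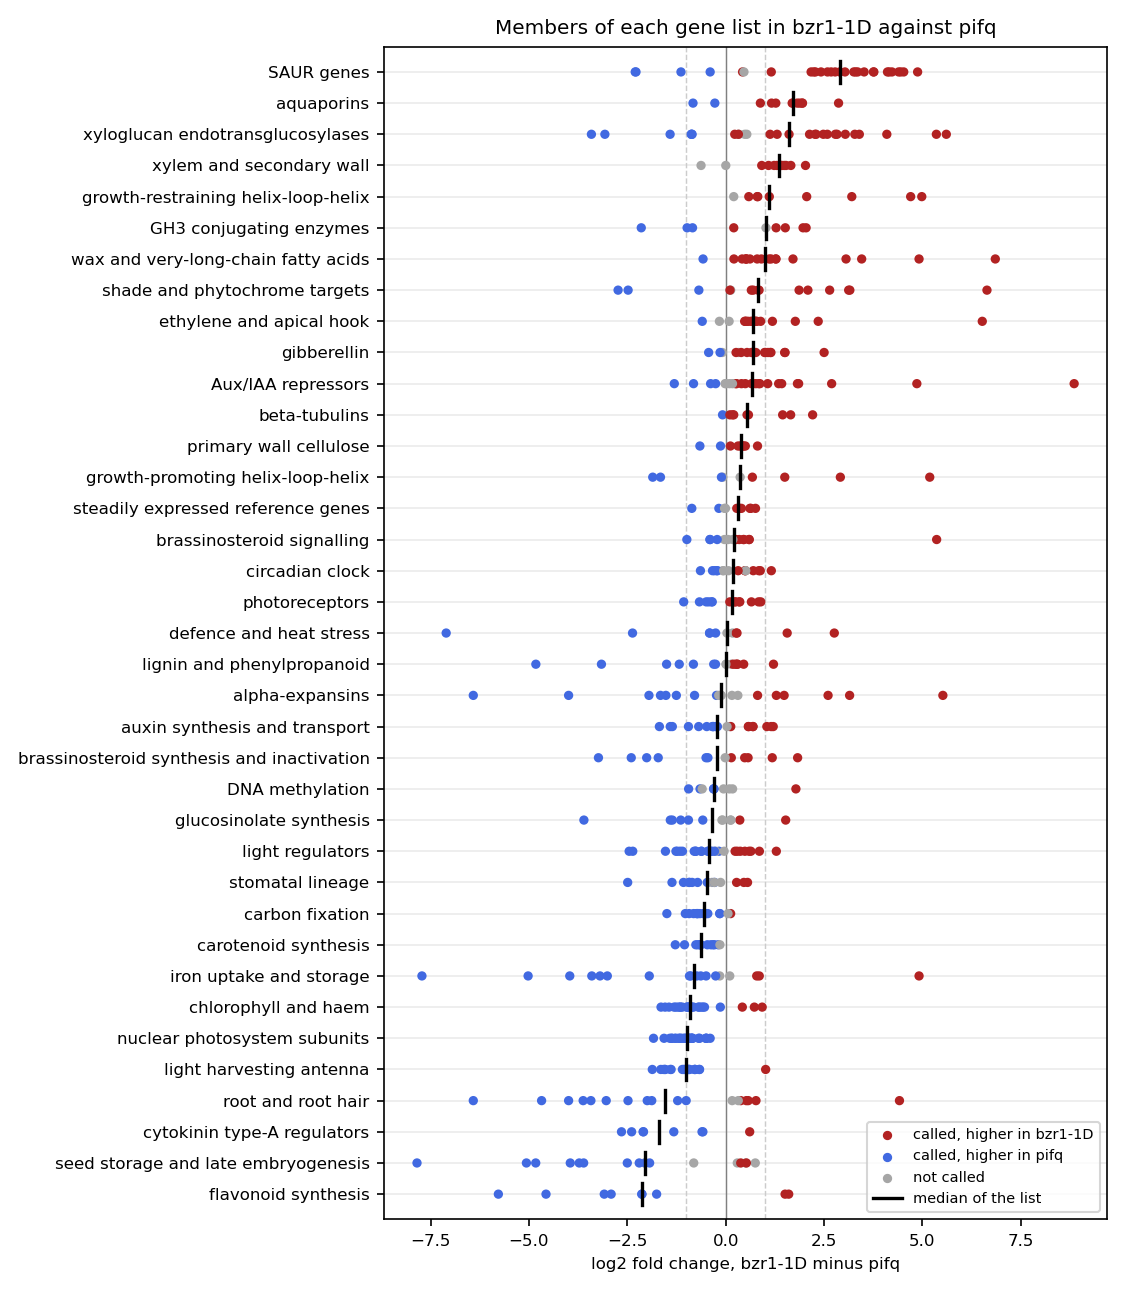
Log2 fold change (horizontal axis, bzr1-1D minus pifq) of each tested member of 37 gene lists, ordered by the list median (black bar), with red points called higher in bzr1-1D, blue points called higher in pifq and grey points not called. Dashed lines mark a 2-fold difference. SAUR genes sit at the top with a median of 2.9, and flavonoid synthesis (-2.13) and the seed storage and late embryogenesis list (-2.06) lie close together at the bottom.

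Growth-restraining helix-loop-helix genes and phytochrome target genes were mostly higher in bzr1-1D, a few of them by a large margin. Of 9 tested growth-restraining helix-loop-helix genes, which bind PIFs or their partners and keep them off DNA, 8 were higher in bzr1-1D and none was higher in pifq, with a median of 1.11. PIL1, a classic marker of shade and PIF activity, had 59 and 59.98 CPM in bzr1-1D and 1.9 and 1.74 CPM in pifq. HFR1, which sequesters PIFs, had 54.5 and 52.9 CPM in bzr1-1D and 2.1 and 1.91 CPM in pifq. The libraries of each line lay close together and the lines were far apart, at log2 fold changes of 4.98 ± 0.09 and 4.7 ± 0.09, with edgeR adjusted p-values of 5.94e-31 and 3.31e-30. IBH1, an inhibitor of cell elongation, had 36.9 and 36.8 CPM in bzr1-1D and 3.65 and 4.14 CPM in pifq. PAR2, a shade-induced restrainer, had a log2 fold change of 2.06 ± 0.11, and AIF1 was the member not called, at 6.69 against 5.65 CPM. In pifq;bzr1-1D, PIL1 stood at 1.29 CPM and HFR1 at 2.72 CPM, and in Col-0 at 56.2 and 83.2 CPM. For both genes the wild type was thus on the bzr1-1D side and the combined line on the pifq side.

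Of 15 shade and phytochrome target genes, 11 were higher in bzr1-1D and 3 were higher in pifq (median 0.83). ATHB2, the homeodomain-leucine zipper factor that far-red light induces, had 74.2 and 73.1 CPM in bzr1-1D and 8.27 and 8.16 CPM in pifq. ST2A, a sulfotransferase, had 187 and 181 CPM in bzr1-1D and 21 and 19.1 CPM in pifq, and PIL2, which encodes PIF6, had 60.5 and 61.5 CPM in bzr1-1D and 9.35 and 9.66 CPM in pifq. Each had a log2 fold change above 2.5 with no overlap, namely 3.13 ± 0.06, 3.16 ± 0.05 and 2.64 ± 0.06. FHL, which carries phytochrome A into the nucleus, was higher by 1.87 ± 0.11, and its partner FHY1 by 0.85 ± 0.04. PIF7 and PIF8, relatives of the removed PIFs that pifq keeps, went the other way at -2.48 ± 0.38 and -2.74 ± 0.22. Their levels were low, 0.24 against 1.33 CPM for PIF7 and 0.64 against 4.18 CPM for PIF8 in bzr1-1D against pifq. RTFL1 had no count in either pifq library and was at least 4.22-fold higher in bzr1-1D.

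The growth-promoting helix-loop-helix genes split. Of 9 tested, 4 were higher in bzr1-1D and 3 were higher in pifq, and this majority became a tie under 4 of 16 alternative settings. PRE6, an atypical member without a DNA-binding region that frees elongation factors from their inhibitors, had 47.9 and 48 CPM in bzr1-1D and 5.98 and 6.41 CPM in pifq, a log2 fold change of 2.91 ± 0.07. BEE1 was higher by 1.5 ± 0.07 and PRE5 by 5.19 ± 0.39, the latter from 3.15 against 0.0785 CPM. PRE3 was lower in bzr1-1D, at -1.66 ± 0.23 and 0.881 against 2.72 CPM, and PRE1 was not called. HBI1, a direct partner of IBH1, differed little, with 77.4 and 77.8 CPM in bzr1-1D and 84.1 and 78.6 CPM in pifq.

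Auxin response genes stood out by size. SAUR (small auxin up RNA) genes encode small proteins that activate the plasma membrane proton pump in elongating cells. Of 29 tested, 24 were higher in bzr1-1D and 4 in pifq, with a median log2 fold change of 2.9, and 23 of the former passed 2-fold. SAUR9 had 28.1 and 25.5 CPM in bzr1-1D and 1.13 and 1.26 CPM in pifq. SAUR16 had 16.5 and 17.4 CPM in bzr1-1D and 0.582 and 0.527 CPM in pifq. These were separated by log2 fold changes of 4.45 ± 0.13 and 4.88 ± 0.17. Col-0 stood at 3.25 CPM for SAUR9 and 1.01 CPM for SAUR16, so that the wild type was nearer to pifq than to bzr1-1D for both. The clustered SAUR19 to SAUR24 genes are near-identical and uncertain one by one, with log2 fold changes from 3.52 to 4.4 for the 6 tested. SAUR6 and SAUR41 were exceptions, at -1.14 ± 0.13 and -2.28 ± 0.23.

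Among 25 Aux/IAA repressors, the short-lived proteins that auxin degrades, 17 were higher in bzr1-1D and 4 in pifq (median 0.66). IAA19 had 34.7 and 36.5 CPM in bzr1-1D and 1.28 and 1.1 CPM in pifq, a log2 fold change of 4.86 ± 0.13. IAA17 had 135 and 132 CPM in bzr1-1D and 19.8 and 20.4 CPM in pifq, a log2 fold change of 2.69 ± 0.05. IAA6 had no count in pifq and was at least 19.8-fold higher in bzr1-1D. IAA27 was the clearest exception at -1.31 ± 0.06, and IAA8 and IAA12 were not called. In contrast to these response genes, auxin synthesis and transport showed no common direction, with 8 of 22 higher in bzr1-1D and 12 in pifq (median -0.22), a majority that became a tie with DESeq2. ABCB19, an auxin exporter of the stem, was higher in bzr1-1D by 0.69 ± 0.04, and CYP79B2, which turns tryptophan toward indole glucosinolates and auxin, was lower, at -1.36 ± 0.11. The GH3 enzymes, which join hormones such as auxin to amino acids, were 5 and 3 of 9, with GH3.5 at 1.51 ± 0.04 and GH3.3 at -0.98 ± 0.06.

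Brassinosteroid genes did not share a direction. Of 12 genes of synthesis and inactivation, 5 were higher in bzr1-1D and 6 in pifq. BR6OX2, which makes brassinolide in the last step, had 32 and 29.8 CPM in bzr1-1D and 286 and 281 CPM in pifq, a log2 fold change of -3.23 ± 0.04. DWF4, the rate-limiting hydroxylase, had 30.8 and 29.5 CPM in bzr1-1D and 97.2 and 95.7 CPM in pifq, a log2 fold change of -1.71 ± 0.05. CYP90D1 and BR6OX1 were lower in bzr1-1D, at -2.4 ± 0.12 and -2.01 ± 0.14, while ROT3, a related P450 of the same pathway, was higher by 0.57 ± 0.05. The upstream sterol genes DWF1, DWF5 and DWF7 differed by no more than 0.48. The enzymes that inactivate the hormone, BAS1 and SOB7, were higher in bzr1-1D by 1.18 ± 0.06 and 1.83 ± 0.06. BR6OX2 and DWF4 also set the combined line apart, with 359 CPM in Col-0 and 3.98 CPM in pifq;bzr1-1D for BR6OX2 and 112 CPM in Col-0 and 11.5 CPM in pifq;bzr1-1D for DWF4. Here the Col-0 mean was above that of pifq, and the pifq;bzr1-1D mean was below those of both single lines. Of 14 signalling genes, 7 were higher in bzr1-1D and 4 in pifq, mostly by little. The receptor BRI1 was at 0.34 ± 0.04, the kinase BIN2 that inactivates BZR1 at 0.59 ± 0.04, and BES1, the closest relative of BZR1, at -0.99 ± 0.04. BSU1 had 1.33 and 0.741 CPM in bzr1-1D and 0 and 0.0406 CPM in pifq, too few counts in pifq for a fold.

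Gibberellin and ethylene genes leaned to bzr1-1D. Of 19 gibberellin genes, 14 were higher there and 2 in pifq (median 0.69), with GA3OX1, which makes the active hormone, at 1.07 ± 0.05. GASA4, a gibberellin-induced peptide gene, had 2712 and 2080.4 CPM in bzr1-1D and 436 and 387 CPM in pifq, a wider spread between the bzr1-1D libraries than for most genes named here but still no overlap. The DELLA repressors RGA and GAI were also higher in bzr1-1D, by 0.77 ± 0.04 and 0.99 ± 0.06. Of 18 ethylene and apical hook genes, 15 were higher in bzr1-1D and 1 in pifq (median 0.7). HLS1, which bends the apical hook, had 23.9 and 25.1 CPM in bzr1-1D and 6.4 and 7.59 CPM in pifq, a log2 fold change of 1.77 ± 0.09. EIN2 and EIN3, central to the ethylene response, were higher by 0.72 ± 0.04 and 0.64 ± 0.04. Both lists mix genes that promote and genes that restrain the hormone's action, such as CTR1, EBF1 and EBF2 for ethylene. Their counts therefore do not give the direction of the response.

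Cell wall loosening genes formed one of the broadest groups. Xyloglucan endotransglucosylases cut and rejoin the tethers between cellulose fibres. Of 27 tested, 18 were higher in bzr1-1D and 6 in pifq, and the median log2 fold change was 1.61. XTH18 had 124 and 121 CPM in bzr1-1D and 2.48 and 2.39 CPM in pifq, a log2 fold change of 5.61 ± 0.08 and an edgeR adjusted p of 4.49e-34, though XTH17, XTH18 and XTH19 are close copies and uncertain one by one. XTH30 had 357 and 353 CPM in bzr1-1D and 32.8 and 32.7 CPM in pifq. XTH24 had 1211 and 1180.2 CPM in bzr1-1D and 271 and 261 CPM in pifq. The latter pair differed by 3.4 ± 0.04 and 2.13 ± 0.04. XTH15 was the member with the highest counts, at 5204 and 5199 CPM in bzr1-1D and 1659 and 1657 CPM in pifq, and Col-0 lay above bzr1-1D there, at 5789.5 CPM. XTH7 ran opposite to the rest with 8.83 and 7.41 CPM in bzr1-1D and 83.1 and 85.7 CPM in pifq, a log2 fold change of -3.41 ± 0.07, and XTH6 and XTH9 did so with -3.07 ± 0.12 and -1.41 ± 0.04. Alpha-expansins, which loosen walls in acid, split instead, with 6 of 19 higher in bzr1-1D and 8 in pifq (a tie once the libraries were thinned to the smallest). EXPA9 had 193 and 198 CPM in bzr1-1D and 21.8 and 21.1 CPM in pifq and EXPA11 had 243 and 242 CPM in bzr1-1D and 38.5 and 39.3 CPM in pifq, whereas EXPA10 was lower in bzr1-1D, at -1.95 ± 0.12.

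Aquaporins, the water channels of the plasma membrane (PIP) and the vacuole (TIP), were higher in bzr1-1D for 10 of 12 members, and the median log2 fold change was 1.7. PIP2;4 had 153 and 153 CPM in bzr1-1D and 20.2 and 20.6 CPM in pifq, and PIP2A had 1023 and 1012 CPM in bzr1-1D and 253 and 259 CPM in pifq. Their log2 fold changes were 2.87 ± 0.05 and 1.95 ± 0.04. TIP2;1 was higher by 1.69 ± 0.04. PIP2;5 and PIP2;8 were higher in pifq, at -0.83 ± 0.15 and -0.28 ± 0.09. Beta-tubulins, the building blocks of microtubules, were higher in bzr1-1D for 8 of 9, led by TUB1 with 108 and 105 CPM in bzr1-1D and 22.8 and 22 CPM in pifq, and TUB2 was -0.08 ± 0.04, lower in bzr1-1D by a small margin. Genes of primary wall cellulose were higher in bzr1-1D for 8 of 10, none by 2-fold. CTL1, a chitinase-like protein of cellulose assembly, reached 0.81 ± 0.03, CESA1 and CESA3, subunits of the synthase, 0.37 ± 0.04 and 0.31 ± 0.04, and CESA5 ran opposite at -0.66 ± 0.05.

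Surface wax and xylem genes were higher in bzr1-1D. Of 18 genes for wax and very-long-chain fatty acids, 17 were higher in bzr1-1D and 1 in pifq (median 1.01). CER1, which makes wax alkanes, had 48 and 48.2 CPM in bzr1-1D and 1.24 and 1.87 CPM in pifq, a log2 fold change of 4.91 ± 0.10. KCS1, a condensing enzyme of chain elongation, had 194 and 196 CPM in bzr1-1D and 23.9 and 21.6 CPM in pifq, a log2 fold change of 3.06 ± 0.05. KCS2 was higher by 3.46 ± 0.08, and KCS6, the main enzyme for wax chains in the shoot, by 1.27 ± 0.03. CER8, a long-chain acyl-CoA synthetase, was the exception at -0.58 ± 0.05. LTP2, a lipid transfer protein of the epidermis picked after its counts were seen, had 3648 and 3730.4 CPM in bzr1-1D and 369 and 348 CPM in pifq. Of 14 xylem and secondary wall genes, 12 were higher in bzr1-1D and none in pifq (median 1.37), and VND6 and IRX10 were not called. The list summed to 152 and 150 CPM in bzr1-1D, 73.1 and 66 CPM in pifq, 91.7 to 93.8 CPM in Col-0 and 65.7 to 66.3 CPM in pifq;bzr1-1D. In whole seedlings, fewer cells of a type and less RNA per cell cannot be told apart. LAC4 and LAC17, laccases of lignified vessels, were higher by 1.36 ± 0.10 and 1.43 ± 0.11, and CESA4, a secondary wall cellulose synthase, by 1.09 ± 0.08.

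**Figure D2:**
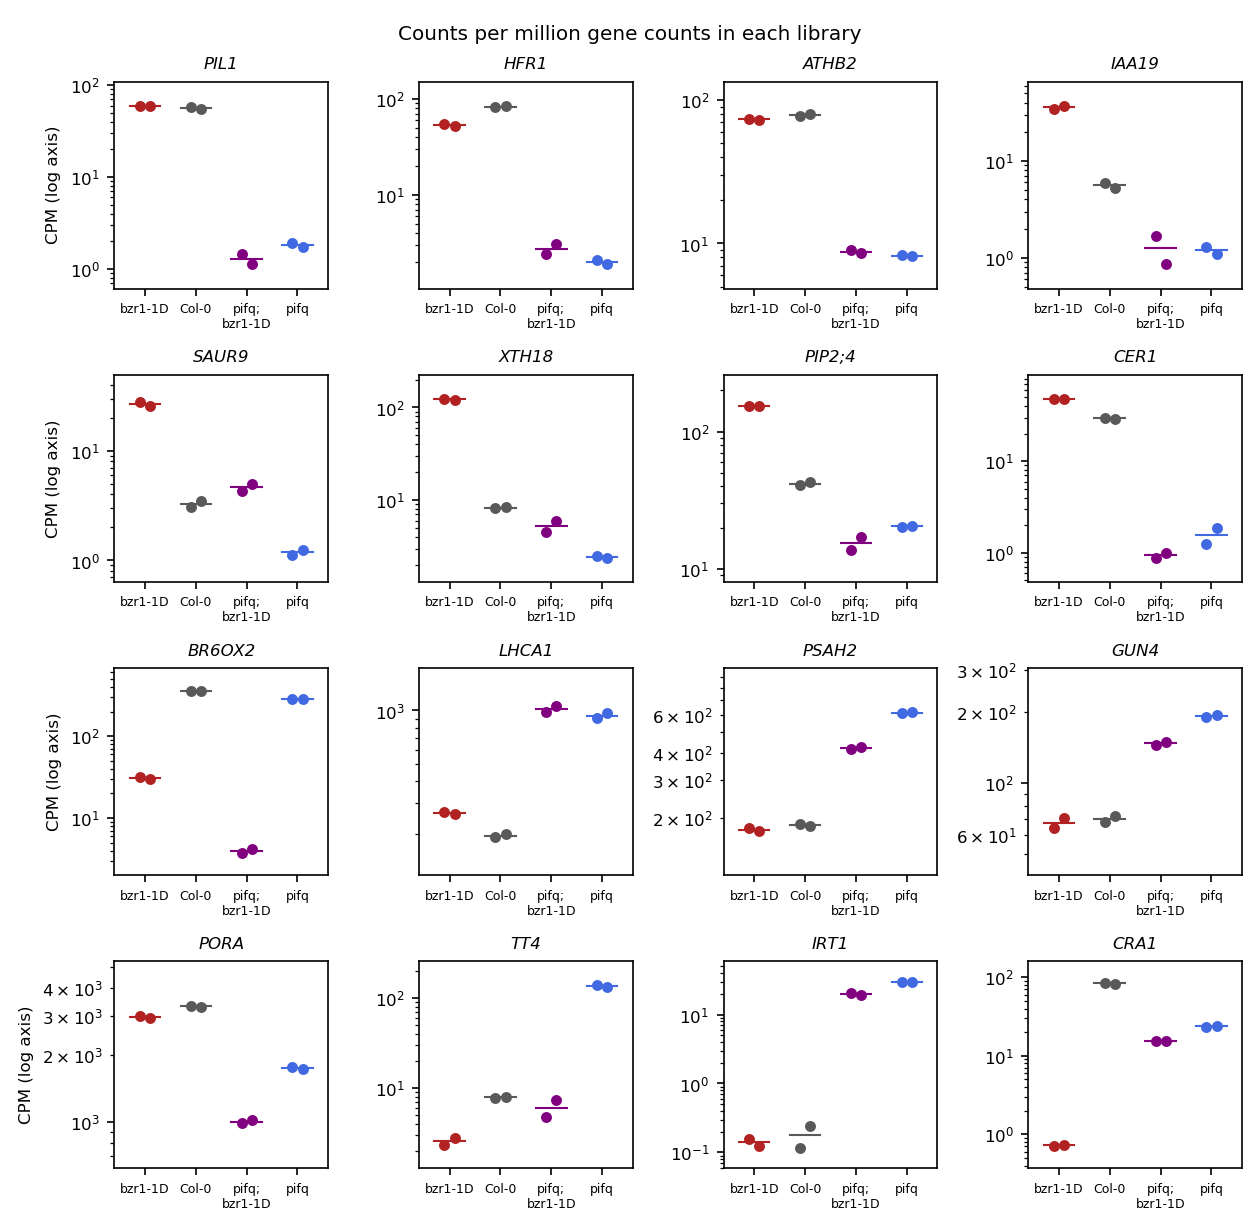
CPM on a log axis for 16 genes in the 8 libraries, 2 points per genotype with a line at their mean. PIL1, HFR1 and ATHB2 have Col-0 beside bzr1-1D and pifq;bzr1-1D beside pifq, LHCA1 shows the same grouping with the order turned over, and TT4 is high in pifq alone at 132 and 140.0 CPM.

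Photosynthesis genes ran the other way, nearly without exception. Of 29 nuclear photosystem and electron transport genes, all 29 were higher in pifq, with log2 fold changes from -1.83 to -0.40 and a median of -0.97. PSAH2, a subunit of photosystem I, had 179.5 and 174 CPM in bzr1-1D and 611 and 618 CPM in pifq, a log2 fold change of -1.83 ± 0.04. PSBO2, part of the oxygen-evolving complex, had 131 and 120.4 CPM in bzr1-1D and 361 and 363 CPM in pifq. FD2, the main leaf ferredoxin, had 384 and 387 CPM in bzr1-1D and 930.4 and 907 CPM in pifq. Their libraries did not overlap, and the differences were between 2-fold and 4-fold. Of 20 light-harvesting antenna genes, 19 were higher in pifq and 1 was higher in bzr1-1D (median -1). The exception was LHCB4.3, at 7.97 against 3.84 CPM. LHCA1 had 269 and 259 CPM in bzr1-1D and 909 and 964 CPM in pifq, a log2 fold change of -1.87 ± 0.04, and LHCB3 was -1.39 ± 0.04. The whole antenna list summed to 31500 and 31100 CPM in bzr1-1D and 73700 and 74600 CPM in pifq, with 28900 and 30600 CPM in Col-0. That sum is a large share of each library, and its genes of the LHCB1 and LHCB2 groups are near-identical copies, so it is read over the list rather than gene by gene.

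The pigment pathways followed with a few exceptions. Of 26 chlorophyll and haem genes, 23 were higher in pifq and 3 in bzr1-1D (median -0.91). GUN4, an activator of the magnesium chelatase, had 64.5 and 70.8 CPM in bzr1-1D and 189.6 and 193 CPM in pifq, a log2 fold change of -1.54 ± 0.04. HEMA1, the entry enzyme of tetrapyrrole synthesis, had 209 and 206 CPM in bzr1-1D and 505 and 499 CPM in pifq, a log2 fold change of -1.31 ± 0.03. CAO, which makes chlorophyll b, was lower in bzr1-1D, at -1.44 ± 0.04. The protochlorophyllide reductases parted, with PORA higher in bzr1-1D by 0.73 ± 0.03, PORB near level at -0.14 ± 0.03 and PORC, the form of green tissue, higher in pifq at -1.64 ± 0.05. HY1, the haem oxygenase that starts the phytochrome chromophore, was higher in bzr1-1D by 0.93 ± 0.04, as was FC1 by 0.42 ± 0.06, while the ferrochelatase FC2 was at -1.21 ± 0.06. Of 13 carotenoid genes, 12 were higher in pifq and none in bzr1-1D, led by PSY, the phytoene synthase that sets the flux, with 98.2 and 94.5 CPM in bzr1-1D and 228 and 228 CPM in pifq. Of 17 carbon fixation genes, 15 were higher in pifq and 1 in bzr1-1D, with GAPA-2, a chloroplast glyceraldehyde phosphate dehydrogenase, at -1.5 ± 0.04 and RCA, the Rubisco activase, at -1.03 ± 0.04. The RBCS genes are near-copies of each other and ranged from -0.65 for RBCS1A to 0.13 for RBCS2B.

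Of 107 tested chloroplast-encoded genes, 93 were higher in pifq and 1 in bzr1-1D, with a median of -1.02. Their share of a library varied within a genotype, at 0.46% and 0.61% in bzr1-1D and 1.5% and 0.934% in pifq;bzr1-1D. In pifq it was 0.998% and 1.14%. The 93 genes are therefore not separate observations, and a link to the nuclear lists was not tested. Light regulators were mixed, 19 of 29 higher in pifq and 8 in bzr1-1D. GLK1 and GLK2, the factors that drive chloroplast genes, were lower in bzr1-1D, at -1.23 ± 0.07 and -1.1 ± 0.05, as was SIG1, a sigma factor of the plastid RNA polymerase, at -1.16 ± 0.04. HY5, the leading factor of light growth, was nearly level with 22.1 and 20.7 CPM in bzr1-1D and 24.1 and 22.9 CPM in pifq, and COP1, which degrades it, was not called. BBX21 and BBX23, cofactors of HY5, were higher in bzr1-1D by 0.64 ± 0.04 and 1.29 ± 0.05. Of 14 photoreceptor genes, 8 were higher in bzr1-1D and 6 in pifq. PHYA, the phytochrome that accumulates in darkness, had 1741 and 1768 CPM in bzr1-1D and 941 and 973 CPM in pifq, and PHOT1, the main blue light receptor of phototropism, was higher by 0.89 ± 0.03, while PHOT2 was lower, at -0.67 ± 0.04. Set against the description of the lines, SAUR, xyloglucan and aquaporin genes fell on the elongating side for bzr1-1D. Photosynthesis genes fell on the de-etiolating side for pifq. The alpha-expansins, the growth-promoting helix-loop-helix genes, HY5 and COP1 did not part the lines that way. Growth-restraining helix-loop-helix genes (8 of 9) and the DELLA repressors RGA and GAI were higher in bzr1-1D, the line described as elongating.

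Flavonoid genes had a list median of -2.13, with 7 of 9 tested genes higher in pifq and 2 in bzr1-1D. TT4, the chalcone synthase that starts the pathway, had 2.34 and 2.76 CPM in bzr1-1D and 140.0 and 132 CPM in pifq, a log2 fold change of -5.78 ± 0.09. FLS1, the flavonol synthase, had 0.742 and 0.782 CPM in bzr1-1D and 16.9 and 18.5 CPM in pifq. MYB111, the factor that switches on flavonol genes, had 2.5 and 2.06 CPM in bzr1-1D and 19 and 18.9 CPM in pifq. TT4 stood at 7.85 CPM in Col-0 and 6.04 CPM in pifq;bzr1-1D, FLS1 at 1.05 CPM in Col-0 and 1.27 CPM in pifq;bzr1-1D and MYB111 at 4.34 CPM in Col-0 and 3.23 CPM in pifq;bzr1-1D. For these 3 genes pifq alone was high, unlike the photosynthesis genes, where pifq;bzr1-1D was high as well (PSAH2 at 422 CPM against 186 CPM in Col-0). TT7, which adds a hydroxyl group to flavonoids, and MYB75, which drives anthocyanin genes, were higher in bzr1-1D at 4.71 against 1.51 CPM and 2.5 against 0.853 CPM. Of the other 8 matched members, none passed the filter on low counts. The related phenylpropanoid list had no direction (6 higher in bzr1-1D and 7 in pifq of 16), but 4CL3, the coumarate ligase of the flavonoid branch, followed TT4 with -4.83 ± 0.24, and FAH1, which makes sinapate precursors, was at -3.16 ± 0.18.

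Iron uptake genes were higher in pifq for 13 of 18 and in bzr1-1D for 3 (median -0.81). IRT1, the root iron importer, had 0.156 and 0.123 CPM in bzr1-1D and 30.00 and 29.7 CPM in pifq, a log2 fold change of -7.72 ± 0.18. FRO2, the reductase that works with it, had 1.91 and 1.69 CPM in bzr1-1D and 14.2 and 14.1 CPM in pifq. NAS4, a nicotianamine synthase, had 0.234 and 0.329 CPM in bzr1-1D and 8.69 and 9.37 CPM in pifq. Col-0 resembled bzr1-1D for IRT1 at 0.18 CPM and pifq;bzr1-1D resembled pifq at 19.96 CPM. FER1 and FER4, ferritins that store iron, were higher in bzr1-1D by 0.79 ± 0.04 and 0.85 ± 0.06, and FER3 was higher in pifq, at -0.89 ± 0.05. Type-A response regulators, which cytokinin induces and which dampen its signal, were higher in pifq for 7 of 8 (median -1.7). ARR7 had 5.24 and 5.06 CPM in bzr1-1D and 21.2 and 21.8 CPM in pifq, and ARR8, the exception, was higher in bzr1-1D by 0.61 ± 0.05. CKX5, a cytokinin oxidase counted with the shade genes, was higher in bzr1-1D by 2.09 ± 0.08.

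Markers of particular tissues moved too, and the part of tissue make-up in the results above was not tested. Of 18 root and root hair genes, 11 were higher in pifq and 5 in bzr1-1D. The median was -1.55, or -1.51 with EXPA18, which had no count in bzr1-1D, at its bound of 3.46-fold. None of the 18 was at 0 in all 4 libraries, and the list summed to 244 and 255 CPM in bzr1-1D and 159 and 157 CPM in pifq, opposite to the count of members. Hair wall genes such as LRX1 had 0 and 0.165 CPM in bzr1-1D and 2.56 and 1.66 CPM in pifq, while LRX2 had 32.2 and 36.8 CPM in bzr1-1D and 1.75 and 1.38 CPM in pifq. PHT1;1, a phosphate transporter with a large part in the sum, had 111 and 112 CPM in bzr1-1D and 73.7 and 72.3 CPM in pifq. Of 15 stomatal lineage genes, 9 were higher in pifq and 3 in bzr1-1D, while the list summed to 415 and 410 CPM in bzr1-1D and 358 and 363 CPM in pifq. The fate regulators SPCH and FAMA were at -1.36 ± 0.17 and -0.92 ± 0.10, and the widely expressed receptor gene ER was at 0.46 ± 0.04. Of 17 tested seed storage and late embryogenesis genes, 10 were higher in pifq and 2 in bzr1-1D. CRA1, a cruciferin, had 0.703 and 0.741 CPM in bzr1-1D and 23.4 and 24 CPM in pifq, and Col-0 stood above both at 83.4 CPM. The seed list summed to 36.4 and 38.8 CPM in bzr1-1D, 75.7 and 77.4 CPM in pifq and 240 and 241 CPM in Col-0, and 2 of its 20 matched members were at 0 in all 4 libraries.

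The remaining lists are given as counts higher in bzr1-1D and in pifq. Clock genes were 7 and 5 of 16, with GI, a light and clock protein, at 1.16 ± 0.05. Glucosinolate genes were 2 and 6 of 12, with MYB28, which drives the aliphatic branch, at -3.6 ± 0.19. Defence and heat stress genes were 4 and 5 of 11, a tie without 1 bzr1-1D library and 4 and 3 with DESeq2, and PR2 had no count in bzr1-1D and was at least 5.62-fold higher in pifq. DNA methylation genes were 1 and 5 of 10. DMT2, a methyltransferase gene related to MET1, had 8.79 and 8.36 CPM in bzr1-1D and 2.25 and 2.6 CPM in pifq but 179 CPM in Col-0, so both mutant lines were far below the wild type. Reference genes often used for normalisation were not level either, 6 of 10 higher in bzr1-1D and 2 in pifq (median 0.32). UBQ10 was at 0.76 ± 0.04 and ACT2 at 0.64 ± 0.03, whereas PP2AA3 was not called, with 67.6 and 72.9 CPM in bzr1-1D and 67.9 and 69.1 CPM in pifq.

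Among called genes with at least 10 CPM in the higher line, those highest in bzr1-1D began with AT1G24370, an uncharacterised protein gene, which had 39.1 and 39.1 CPM in bzr1-1D and 0.194 and 0 CPM in pifq, beside 0.0923 CPM in Col-0 and 0.096 CPM in pifq;bzr1-1D. Only the bzr1-1D libraries held it above 1 CPM. AT5G55360, an acyltransferase family gene, had 10.4 and 10.13 CPM in bzr1-1D and 0.0776 and 0 CPM in pifq. AT5G32460, a B3 factor gene, had 10.4 and 10.7 CPM in bzr1-1D and 0.0388 and 0.0406 CPM in pifq. These, like the uncharacterised AT5G35965 next to them in rank, had 2 counts over both pifq libraries, too few for a fold. PRP2, a proline-rich wall protein gene, had 334 and 342 CPM in bzr1-1D and 9.27 and 7.26 CPM in pifq, beside 14 CPM in Col-0 and 11.2 CPM in pifq;bzr1-1D, a log2 fold change of 5.31 ± 0.06. WAG1, a kinase that directs auxin transport, had 19.4 and 19 CPM in bzr1-1D and 0.427 and 0.365 CPM in pifq, beside 1.23 CPM in Col-0 and 1.26 CPM in pifq;bzr1-1D, and HMT3, which methylates homocysteine, had 22.4 and 21.1 CPM in bzr1-1D and 0.621 and 0.446 CPM in pifq. OLEO3, an oil body protein gene, had 30.05 and 29.2 CPM in bzr1-1D and 0.737 and 1.01 CPM in pifq, opposite to OLEO1 and OLEO2 of the seed list.

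At the other end, AT4G22505, a lipid-transfer-like gene, ranked first. It had 0 and 0 CPM in bzr1-1D and 11.7 and 8.93 CPM in pifq and was at least 85.8-fold higher in pifq. AT3G05727, a gene of a pollen coat protein family, came next with 0.0391 and 0 CPM in bzr1-1D and 11.9 and 11.7 CPM in pifq, too few counts in bzr1-1D for a fold. AT4G22485, of the same family as AT4G22505, had 0.391 and 0.0823 CPM in bzr1-1D and 87.1 and 76.7 CPM in pifq. MLP423, a gene of the major latex protein family, had 0.274 and 0.123 CPM in bzr1-1D and 53.7 and 54.3 CPM in pifq, beside 10.2 CPM in Col-0 and 14.3 CPM in pifq;bzr1-1D. TLL1, a lipase-like gene, had 1.09 and 0.988 CPM in bzr1-1D and 57.2 and 58.5 CPM in pifq, a log2 fold change of -5.83 ± 0.11. Some of the genes lowest in bzr1-1D were present in the 3 other genotypes. GER2, a germin-like gene, had 0.313 and 0.206 CPM in bzr1-1D and 19.2 and 17.8 CPM in pifq, beside 16.4 CPM in Col-0 and 13.5 CPM in pifq;bzr1-1D. AT5G36930, a resistance gene family member, had 0.0782 and 0 CPM in bzr1-1D and 12.7 and 13.6 CPM in pifq, and the near-identical AT5G50565 and AT5G50665, uncertain one by one, had 3 counts each over both bzr1-1D libraries. By the genes with the largest shift in CPM, a choice made after the values were seen, PYK10, a beta-glucosidase, had 1282 and 1275 CPM in bzr1-1D and 4429.9 and 4541 CPM in pifq, and CA2, a carbonic anhydrase that ran opposite to most carbon genes, had 4022 and 4006 CPM in bzr1-1D and 2166 and 2175 CPM in pifq.

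Some of these lie close to a mutated gene. Genes called at 16-fold or more were 399 of 21221 (1.88%). Among the 100 tested genes nearest to PIF4 by gene order, 50 on each side, there were 7 of that size, all higher in bzr1-1D, against 399 of 21063 nuclear genes (1.89%). Windows of the same size held 4 around PIF3, 1 around PIF5 and none around PIF1 or BZR1. The 5 consecutive tested genes from AT2G42750 to CSY3, which lie 24 to 20 tested genes before PIF4, were near 0 in pifq. CSY3, a peroxisomal citrate synthase gene, had 99.996 and 101 CPM in bzr1-1D and 0.737 and 0.203 CPM in pifq, beside 97.9 CPM in Col-0 and 0.401 CPM in pifq;bzr1-1D. AT2G42750, a DNAJ domain protein gene, had 55.1 and 57.6 CPM in bzr1-1D and 0.31 and 0.284 CPM in pifq, and AT2G42780, annotated as a transcription elongation factor, had 22.5 and 23.6 CPM in bzr1-1D and 0.194 and 0.0406 CPM in pifq. All 5 were near 0 in the 4 libraries labelled pifq or pifq;bzr1-1D and present in the 4 libraries of Col-0 and bzr1-1D. IBH1, described above, lies 4 tested genes after PIF4 and PAR1 13 tested genes before it, and whether their values belong with the neighbourhood or with the helix-loop-helix group was not tested.

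**Figure D3:**
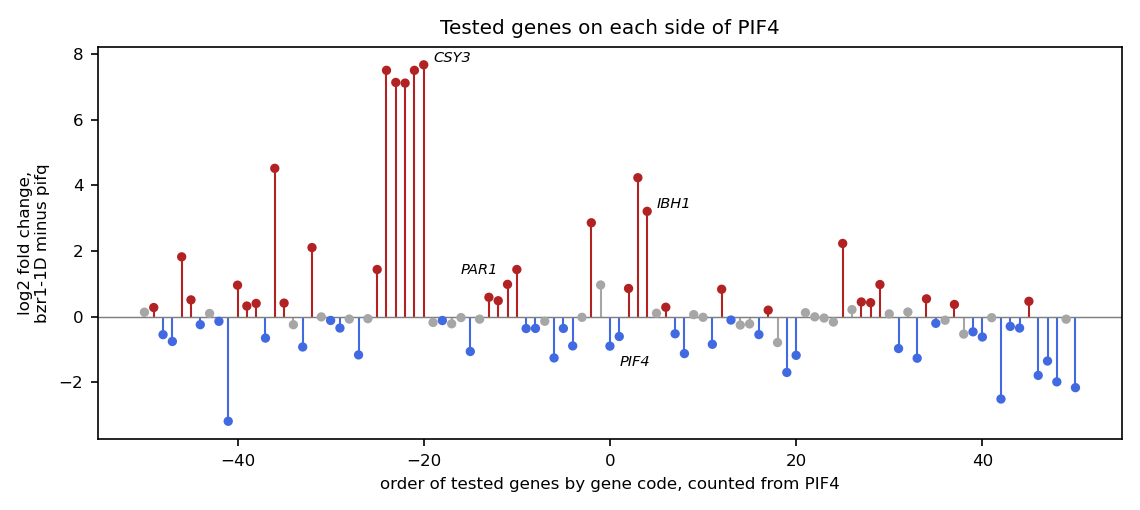
Log2 fold change (vertical axis, bzr1-1D minus pifq) of the tested genes on each side of PIF4 in the order of their gene codes, with red for called higher in bzr1-1D, blue for called higher in pifq and grey for not called. A run of 5 genes ending in CSY3, 24 to 20 places before PIF4, stands above 7 on the log2 scale, as fitted values, which for AT2G42760 and AT2G42770 rest on 1 and 2 counts in pifq.

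The other 2 genotypes show where each line lies relative to the wild type and the combined line. For each gene, Col-0 and pifq;bzr1-1D were tested against the midpoint of bzr1-1D and pifq on the log2 scale in the same edgeR fit. Col-0 left the midpoint for 11127 genes (52.4%) and pifq;bzr1-1D for 10813 genes (51.0%). The midpoint holds the same libraries as the difference itself, so these counts describe positions and are not separate evidence of the difference. Of all genes tested, 5456 were called between the lines with Col-0 nearer to bzr1-1D (25.7%) and 3653 with Col-0 nearer to pifq (17.2%). The combined line was nearer to bzr1-1D for 3028 genes (14.3%) and nearer to pifq for 5694 (26.8%).

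The 2-fold genes show how the other genotypes fall between the lines. On a scale with pifq at 0 and bzr1-1D at 1, the median position of Col-0 was 0.47 over the 2702 genes higher in bzr1-1D and 0.65 over the 2414 genes higher in pifq. The median position of pifq;bzr1-1D was 0.27 and 0.38. Col-0 lay between the lines for 82% and 71% of these genes, and pifq;bzr1-1D for 71.7% and 78.7%. Col-0 lay beyond bzr1-1D for 193 and 376 genes, and beyond pifq for 294 and 324. The combined line lay beyond bzr1-1D for 111 and 113 genes, and beyond pifq for 654 and 401.

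**Figure D4:**
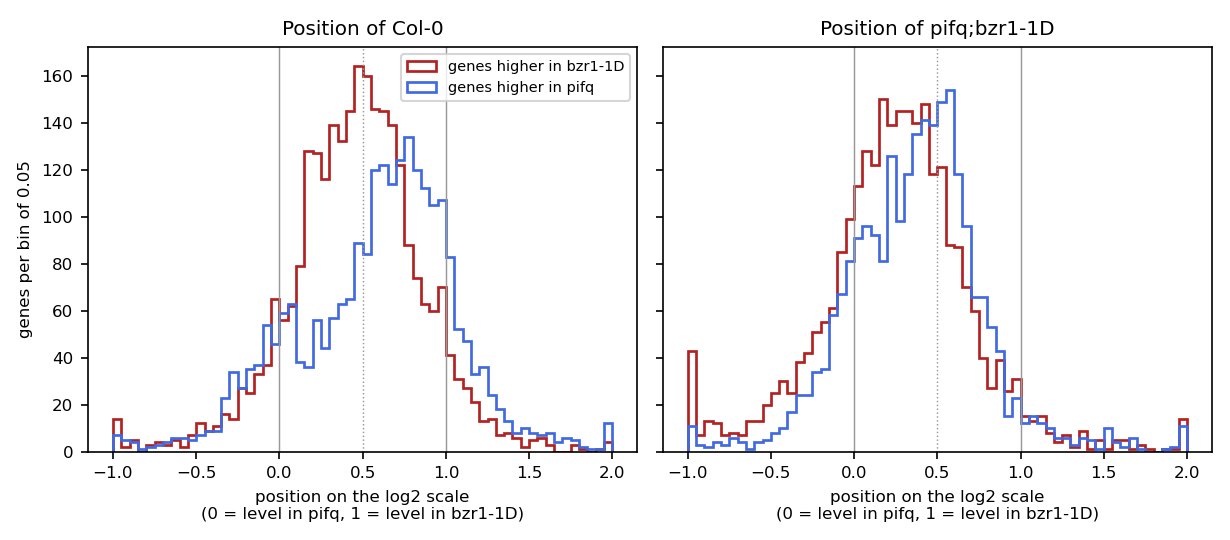
Number of genes called at 2-fold or more (vertical axis, bins of 0.05) by the position of Col-0 (left) and pifq;bzr1-1D (right) between pifq at 0 and bzr1-1D at 1 on the log2 scale, red for genes higher in bzr1-1D and blue for genes higher in pifq, with values beyond the axis gathered in its end bins. Col-0 has medians of 0.47 and 0.65, and pifq;bzr1-1D has medians of 0.27 and 0.38.

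The gene groups took different places on this scale. For the nuclear photosystem genes, Col-0 was nearer to bzr1-1D for 28 of 29 and nearer to pifq for none, and pifq;bzr1-1D was nearer to pifq for 26. The antenna genes gave 19 of 20 for Col-0 and 18 for the combined line. In these groups Col-0 thus sat with bzr1-1D, and the combined line with pifq. SAUR genes had Col-0 nearer to pifq for 11 of 29 and nearer to bzr1-1D for 7, and the wax genes had it nearer to pifq for 11 of 18 and nearer to bzr1-1D for 5. The combined line was nearer to pifq for 9 of 29 SAUR genes and 12 of 18 wax genes. Over all genes tested, Col-0 was nearer to bzr1-1D for 25.7% and nearer to pifq for 17.2%. The combined line was nearer to bzr1-1D for 14.3% and nearer to pifq for 26.8%. For SAUR genes, Col-0 nearer to bzr1-1D and the combined line nearer to pifq were thus close to the shares of all genes. Root and root hair genes had Col-0 nearer to pifq for 11 of 18, and flavonoid genes had Col-0 nearer to bzr1-1D for 7 of 9 and the combined line nearer to bzr1-1D for 5.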

How the data were processed

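Each library has a deposited table of raw read counts for every gene code, made by the authors with TopHat and HTSeq on the TAIR9 build, per the submitters' processing notes. Tool versions, the strand option and the handling of multiply mapped reads were not given in the sources used here, so near-identical, overlapping and antisense genes are uncertain one by one. Total RNA went into TruSeq libraries, per the labels' protocols. Of 33518 gene codes, 32709 were found in the TAIR10.1 annotation, which gave names and gene order. As that build is not the one of the counts, no coordinates or sequences are printed. Reads assigned to no gene (2.68% to 4.27%) and ambiguous reads (1.95% to 2.08%) stayed out of library sizes.

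After filterByExpr removed 12297 genes, edgeR 4.0.16 (R 4.3.3) with TMM scaling and its quasi-likelihood F test was run on the counts. A single fit took all 8 libraries, 1 mean for each genotype and 4 residual degrees of freedom. P-values were adjusted by Benjamini-Hochberg over 21221 genes and called under 0.05. The value after ± is the absolute log2 fold change over the square root of F. It falls below the counting error for large folds with few counts in 1 line. IRT1, for example, had 7 counts over both bzr1-1D libraries. A fold against a line with no count uses a floor of 3 counts per library. On simulated counts with 1 mean per gene over all libraries, the procedure called 80% and 85% of genes lowered or raised 2-fold in bzr1-1D against pifq. It called 62.5% and 75% of those lowered or raised by 0.5 on the log2 scale, and 0.0523% of unchanged genes. In the simulation 21021 of 21221 genes were unchanged, whereas 74.1% were called in the data, so these rates do not carry over to the data.

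The libraries of a genotype differed by more than sampling noise over all genes (chi-square per degree of freedom 1.72 to 5.5, median over genes 0.559 to 0.644). Each was treated as 1 sample, but such spread can also be technical and cannot show that the libraries are separate cultures. Members and lists were chosen with earlier results of these data known. Genes named are those mutated, the 8 highest and 8 lowest fold changes at 10 CPM or more without overlap, the same among genes with a symbol, and up to 4 list members by smallest p with up to 2 of the opposite direction, some left out for length and some not reported here. Other list members were named after their values were seen. Alternatives changed the normalization, filter, test, samples, depth, organelle genes and replicate block.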

Additional observations from a re-analysis of the deposited data

Results flagged for a closer look

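Reads that HTSeq assigned to no gene were more frequent in pifq than in any control library, with 3.64% in the lower pifq library against at most 3.53% in Col-0, and less frequent in bzr1-1D, at 2.68% and 2.78%. Reads that were ambiguous between genes made up 2.04% in the lower bzr1-1D library, above the 2% of the higher Col-0 library and the 1.95% and 1.99% in pifq. Both classes lie outside the gene counts, and what they hold was not tested.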

How the results depend on the processing

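The counts of called genes over all genes tested stayed within 1.5 times their reported values in the settings run, while small counts of list members moved further, such as gibberellin genes higher in pifq (2, but 0 when thinned or with DESeq2), brassinosteroid signalling genes higher in pifq (4, but 2 with DESeq2) and ethylene genes higher in pifq (1, but 0 with DESeq2). Genes called between bzr1-1D and pifq ranged from 13262 with DESeq2 to 16040 without a filter on low counts, and those at 2-fold or more from 3411 with a test against 2-fold (glmTreat) to 5453 without a filter. Leaving out each library in turn gave 14561 to 15990 called genes. Upper-quartile scaling moved the median of all genes from -0.01 to -0.072 and the higher share of the calls from 49.7% to 45%. Of 242 named genes none changed direction, and at most 7 lost their call in a single setting (DESeq2), all small or low ones such as TUB2, RBCS2B, GID1A and WRKY33.

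No general pairing by replicate number was seen: over 11917 genes, deviations of same-numbered libraries correlated between -0.0304 and 0.0435. Whether some genes share a batch by number was not tested. With the replicate number as a block, 15748 genes were called, 5116 of them at 2-fold, and the tests against the midpoint called 11116 (Col-0) and 10809 (pifq;bzr1-1D). The midpoint tests fell further in other settings, from 11127 to 7634 genes for Col-0 and from 10813 to 7600 for pifq;bzr1-1D with DESeq2. Thinned libraries gave 9600 and 9624. Majorities became ties for the growth-promoting helix-loop-helix genes (4 of 16 settings), auxin synthesis and transport, alpha-expansins and lignin (1 each), and that of defence and heat stress tied in 1 setting and turned in 1. The flavonoid median was below the seed median as reported (-2.13 against -2.06) but above it in 4 settings, such as without bzr1-1D replicate 2 (-2.04 against -3.19). The planned promoter-motif window was not run. Genes of few counts are limited by depth, and 2 named genes gave no value when libraries were thinned to 16.1 M.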
